A study of Mus musculus with 4 samples.

Results

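The genes described here are 10 components of the Notch pathway measured in mouse cortical cultures in which the decapping enzyme DcpS was depleted. They are the ligands Dll1 and Dll3, the receptors Notch1 and Notch2, the target genes Hes1, Hes5 and Hey1, and the Deltex genes Dtx1, Dtx3 and Dtx4. All 10 were found by symbol among the 32681 genes of the counts table, and all 10 passed the filter on low counts that left 18110 genes for testing. The series holds 4 RNA-seq libraries from primary neuron cultures of wild-type CD-1 mouse neocortex taken at embryonic day 13, in 2 groups of 2: control shRNA (short hairpin RNA) and DcpS shRNA, both introduced by transfection. All 4 cultures shared the strain, the age and the Neurobasal medium with B27 supplement. The titles of both DcpS shRNA libraries carry the same hairpin name, shDcPS-2. With a single hairpin, its effects on other transcripts cannot be told apart from those of DcpS loss. DcpS hydrolyses the cap structure that remains after an mRNA has been degraded from its 3′ end. The labels do not say whether the cultures came from separate litters or what share of cells took up the shRNA, so the error behind each p-value is that between 2 libraries of a group and may be technical.

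Notch signalling passes between touching cells. A Delta or Jagged ligand on one cell binds a Notch receptor on its neighbour, the receptor is cleaved first by the protease ADAM10 and then by gamma-secretase, and its freed intracellular domain joins the DNA-binding protein RBPJ and a Mastermind coactivator to switch on repressors of the Hes and Hey families. In the developing cortex this signal keeps radial glia, the neural stem cells, from differentiating, while newly committed precursors and young neurons present the ligands. Deltex proteins are E3 ubiquitin ligases; the founding members bind the intracellular part of Notch and affect its trafficking.

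The libraries held 17754768 to 21793685 recovered reads, and each member had between 168 and 3580 reads in each library. Dcps itself was at 499.8 and 507 normalised read counts (reads divided by a size factor for each library) in control 1 and 2 and at 114 and 119.6 in DcpS shRNA 1 and 2. Markers of projection neurons summed to between 65784 and 67004 in the controls and to between 63821 and 64557 with DcpS shRNA. Of the 8, 0 were called lower and 1 was called higher, Slc17a7 (log2 fold change 0.52; limma, Benjamini-Hochberg adjusted p 8.1e-05). The other 7 had log2 fold changes below 0 and were not called. Radial glia markers summed to between 43260 and 44792 and to between 42841 and 44099. Fibroblast markers were the list with the most calls: 6 of 6 were lower (log2 fold change −0.87 for Col1a1, −0.85 for Col1a2 and −0.77 for Col3a1), and their sum went from between 11103 and 12200 to between 6538 and 6742. Astrocyte markers were lower for 3 of 6 genes (Gja1 −0.67, Aqp4 −1.13, Gfap −0.91 in log2 fold change), with sums of 2107 and 2366 in the controls and of 1627 and 1716 with DcpS shRNA. Aqp4 lost its call when control 2 was left out (Benjamini-Hochberg adjusted p 0.0698 in limma), without DcpS shRNA 1 (0.0501) and with DESeq2 (0.110). That of Gfap ended without control 2 (log2 fold change −0.51; limma, adjusted p 0.25), DcpS shRNA 1 (0.0957) or DcpS shRNA 2 (0.113). No marker was listed at 0 in all 4 libraries. In bulk RNA, fewer cells of a type and less RNA per cell cannot be told apart.

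Among the 10 members, Dtx4 fell, Hey1 and Dtx1 rose, and the other 7 did not pass. A gene was called where the Benjamini-Hochberg adjusted p of limma's moderated test, taken over all genes tested, was under 0.05. By that rule 5.79% of all genes tested were called, 2.14% higher and 3.65% lower, and of the 10691 genes with a mean level at or above that of the lowest member 7.95% were called, 3.26% higher and 4.7% lower. The members' 3 of 10 is above those shares, and nothing particular to the group is read from 3 genes. With edgeR 3 members and 5.95% of all genes were called, with DESeq2 1 member and 2.47%, and with a replicate block 4 members and 8.98%. The groups did not overlap for 6 members, 4 higher and 2 lower, where 48.4% of all genes tested had groups that did not overlap (24.4% higher, 24% lower), so that count is near the background. The members' median log2 fold change was 0.11, beside 0.00074 for all genes tested.

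**Figure D1:**
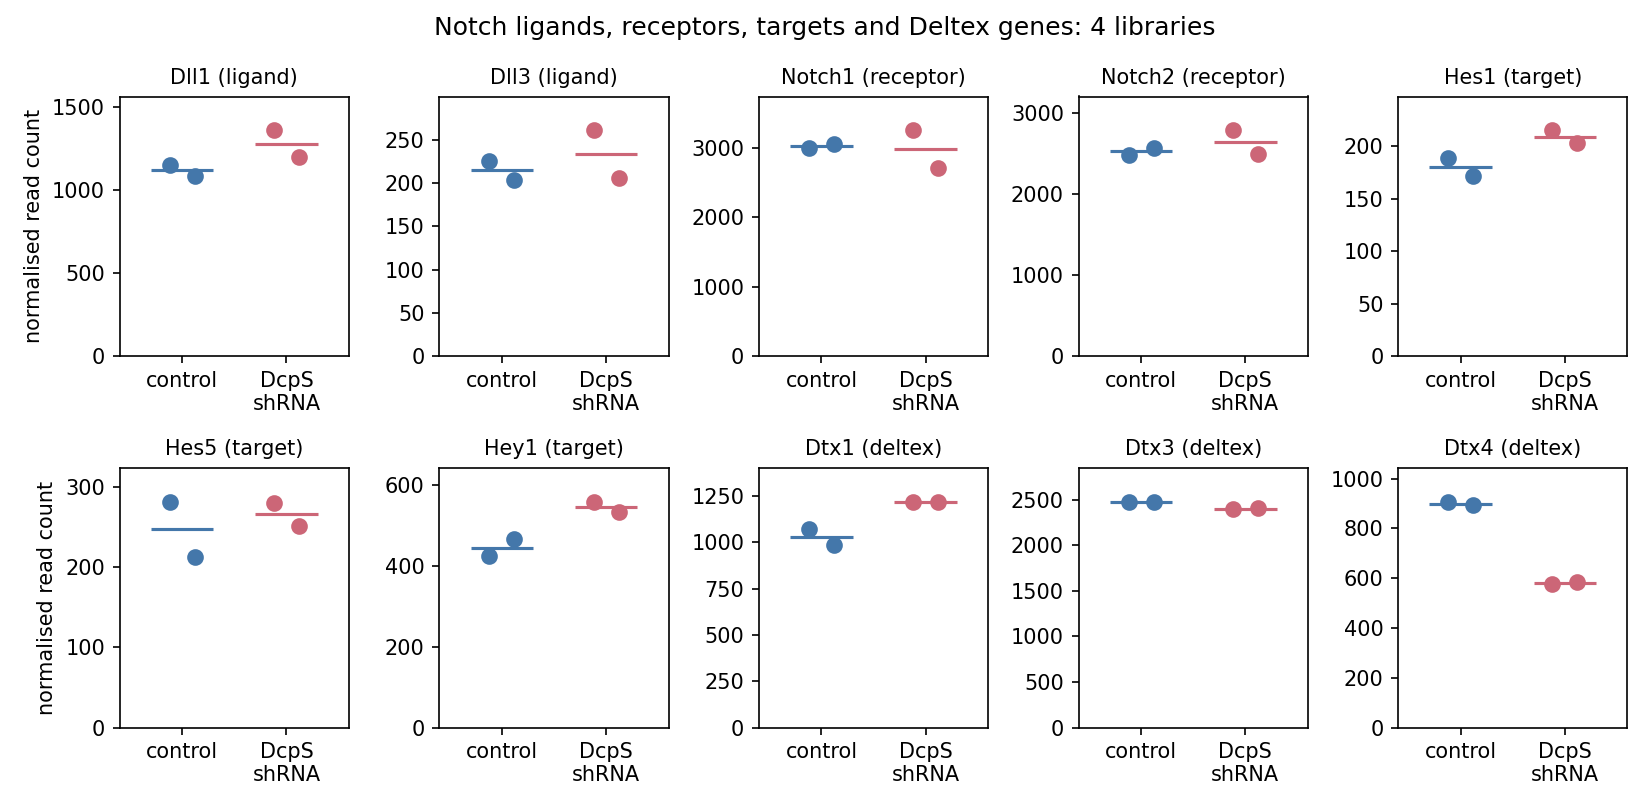
Normalised read counts (vertical axes, each starting at 0) of the 10 members in the 2 control libraries (blue) and the 2 DcpS shRNA libraries (red). Points are libraries and bars are group means. Dtx4 is the one member whose DcpS shRNA libraries lie far below both controls, at 576 and 583 against 907 and 892.

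Dtx4 was the member with the largest difference. This gene (chr19:12466338-12501454, minus strand, GRCm38) encodes a Deltex E3 ligase that has also been tied to the turnover of the kinase TBK1. Control 1 and 2 had 907 and 892 normalised read counts, and DcpS shRNA 1 and 2 had 576 and 583. Libraries of the same group lay close together and the groups were far apart. The mean went from 899.8 ± 10.7 to 579.7 ± 5.16 (SD, n = 2 per group), so the linear mean fell by 35.6%. The log2 fold change, on the log2(value + 1) scale used throughout, was −0.63 (SE 0.07, 95% interval −0.78 to −0.49; limma, Benjamini-Hochberg adjusted p 2.2e-05). It stayed between −0.65 and −0.62 under all 13 processing alternatives, each of which called it.

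Dtx1 (chr5:120680202-120711927, minus strand), the family member closest in name to fly deltex, went the other way. It was at 1071 and 987 in the controls and at 1215 and 1219 with DcpS shRNA, so both DcpS shRNA libraries lay above both controls. The log2 fold change was 0.24 (SE 0.06; limma, Benjamini-Hochberg adjusted p 0.0292). Without control 2 it was 0.18 and no longer called (limma, adjusted p 0.315), and DESeq2 did not call it (adjusted p 0.192).

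Dtx3 (chr10:127190378-127195728, minus strand), a shorter Deltex protein without the WWE domains that Dtx1 and Dtx4 carry, was the most even member. It was at 2472 and 2479.7 in the controls and at 2394 and 2412 with DcpS shRNA. The groups did not overlap, yet the log2 fold change was only −0.04 (SE 0.05, 95% interval −0.15 to 0.07; limma, Benjamini-Hochberg adjusted p 0.725).

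Divided by the length of the longest coding transcript, Dtx3 stood at 1242 ± 2.62 normalised reads per kilobase in the controls, the highest of the 10 members. Dtx1 stood at 255 ± 14.8 and Dtx4 at 172 ± 2.05 on that scale (SD, n = 2 each). The level of Dtx4 per kilobase was 0.654 and 0.698 of that of Dtx1 in control 1 and 2 and 0.366 and 0.369 in DcpS shRNA 1 and 2. The order Dtx3, Dtx1, Dtx4 was thus the same in both groups, with a wider gap between the last pair with DcpS shRNA. The other Deltex genes listed, Dtx2 and, chosen after its values were seen, Dtx3l, were not called: Dtx2 was at 288 and 311 in the controls and at 285 and 287 with DcpS shRNA, and Dtx3l at 138 and 112 and at 96.3 and 107.

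The Dtx4 transcript carries words that recur in the transcripts lowered here. In an earlier look at these data, the 7-base words ACGTGCA and CACGTGC were picked out because they were frequent in the 3′ untranslated regions (3′ UTRs) of lower genes and both occur in Dcps. Counted again here in GENCODE M21 transcripts on the transcript strand, at least 1 of them was present in 33.1% of the 646 called lower genes with a scanned 3′ UTR, in 6.25% of the 368 called higher genes and in 8.01% of all 13702 scanned genes tested. Since the words were chosen on these samples, these shares are a description. Of the 10 members, Dtx4 has both words and Dtx1 has 1. The windows below, from GRCm38 and all on the minus strand, show the words in capitals for Dcps, for these members and for the called lower pathway genes Furin and Maml1 described further on.
Dcps, chr9:35124745-35124774, with the words overlapping: actatcacctgCACGTGCAtttcacagctc
Dtx4, chr19:12468537-12468566: aaattctgtttCACGTGCcaaatcccaatt
Dtx4, chr19:12466348-12466377: tcatgaggtgtACGTGCAgaacaataaact
Furin, chr7:80389197-80389226: aaagtgattaaACGTGCAgactatgcaaac
Maml1, chr11:50256480-50256509: ggagggtcagaACGTGCAcacactgctaac
Dtx1, chr5:120680938-120680967: cgcacgtacacCACGTGCctctccacttct

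In Dtx4 the words begin at bases 921 and 3110 of a 3′ UTR of 3138 bases, the second ending 22 bases before the annotated transcript end. A long 3′ UTR holds a given word more often: of tested genes with a 3′ UTR of at least 3000 bases, 18.8% had a word, and of the called lower genes among them 39.8%. A word did not always go with a lower level, since Dtx1 rose and 5 other pathway genes with a word were not called. Among them, picked out by the word, were Aph1a (log2 fold change 0.09), Aph1c (−0.09), Pofut1 (−0.02) and Maml3 (0.10). Whether the words have a part in the fall of Dtx4 was not tested.

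Among the 3 target genes of the members, Hey1 rose and the Hes genes did not pass. Hey1 (chr3:8663359-8667256, minus strand) encodes a basic helix-loop-helix repressor induced by Notch. It was at 424 and 465 in the controls and at 558 and 532 with DcpS shRNA, with no overlap between groups. Its mean went from 444 ± 28.8 to 545 ± 18.3 (SD, n = 2 per group), 22.7% higher, with a log2 fold change of 0.30 (SE 0.08, 95% interval 0.12 to 0.47; limma, Benjamini-Hochberg adjusted p 0.0451). The call rested on single libraries: without control 1 the log2 fold change was 0.23 (limma, adjusted p 0.303) and without DcpS shRNA 1 it was 0.26 (0.122). DESeq2 also left Hey1 uncalled (adjusted p 0.288), as it did every member but Dtx4.

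Hes1 (chr16:30064384-30067796, plus strand), a Notch-induced repressor of proneural genes, was at 189 and 172 in the controls and at 215 and 203 with DcpS shRNA. Both DcpS shRNA libraries were above both controls, but at this depth the log2 fold change of 0.21 had a 95% interval of −0.04 to 0.46 (SE 0.12; limma, Benjamini-Hochberg adjusted p 0.362). Hes5 (chr4:154960923-154962371, plus strand), the Hes gene most closely tied to Notch activity in radial glia, was at 281 and 212 in the controls and at 279.8 and 251 with DcpS shRNA. The control libraries spread so widely that the DcpS shRNA libraries lay between them, and the log2 fold change was 0.12 (95% interval −0.15 to 0.39; limma, Benjamini-Hochberg adjusted p 0.690). Both intervals include changes of either sign, so no difference in Hes1 or Hes5 was detected.

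RefSeq promoter windows (GRCm38.p6, from 250 bases before to 50 bases after the start site) were matched for 6 of the 10 members, namely Notch1, Notch2, Hes5, Dtx1, Dll3 and Dll1. They were searched on both strands for GTGGGAA, a word bound by RBPJ. It was found in Hes5, beginning 226 bases upstream on the other strand and 83 bases upstream on the gene's strand, and in none of the other 5. Of 32851 promoter windows of that length, 6.38% hold it. The Hes5 stretch is shown because it carries the RBPJ words of a classic Notch target, in capitals, while its transcript was not called; a match is a description and not a measured site.
Hes5, chr4:154960690-154960849, plus strand: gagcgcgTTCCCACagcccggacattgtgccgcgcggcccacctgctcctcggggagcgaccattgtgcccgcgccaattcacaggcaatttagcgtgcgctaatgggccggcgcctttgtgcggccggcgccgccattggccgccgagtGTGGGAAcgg

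The ligands were both uncalled. Dll1 (chr17:15367354-15376872, minus strand) is the Delta ligand that newly committed precursors present to radial glia. It was at 1154 and 1087 in the controls and at 1361 and 1202 with DcpS shRNA. Both DcpS shRNA libraries were above both controls, by a log2 fold change of 0.19 (SE 0.07, 95% interval 0.05 to 0.34), and the unadjusted p of 0.0118 became 0.122 after Benjamini-Hochberg adjustment in limma. Without DcpS shRNA 2 the log2 fold change was 0.28 and was called (limma, adjusted p 0.0115). Dll3 (chr7:28293553-28302238, minus strand), a divergent ligand that does not activate Notch on neighbouring cells, was at 225 and 204 in the controls and at 261 and 206 with DcpS shRNA. Its groups overlapped (log2 fold change 0.11, 95% interval −0.16 to 0.38; limma, Benjamini-Hochberg adjusted p 0.709).

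The receptors had high read counts, not divided here by transcript length, that did not separate the groups. Notch1 (chr2:26457903-26516663, minus strand) was at 3005 and 3056 in the controls and at 3253 and 2711 with DcpS shRNA, so the DcpS shRNA libraries lay on either side of both controls. Its log2 fold change was −0.03 (95% interval −0.18 to 0.12; limma, Benjamini-Hochberg adjusted p 0.884). Notch2 (chr3:98013527-98150361, plus strand) was at 2488 and 2576 in the controls and at 2789 and 2499.8 with DcpS shRNA, and the groups overlapped. Its log2 fold change was 0.06 (95% interval −0.06 to 0.19; limma, Benjamini-Hochberg adjusted p 0.652). DcpS shRNA 1 was above DcpS shRNA 2 in 7 of the 10 members, both receptors among them. The DcpS shRNA libraries of Notch1 differed far more (SD 383) than the controls (SD 35.8).

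**Figure D2:**
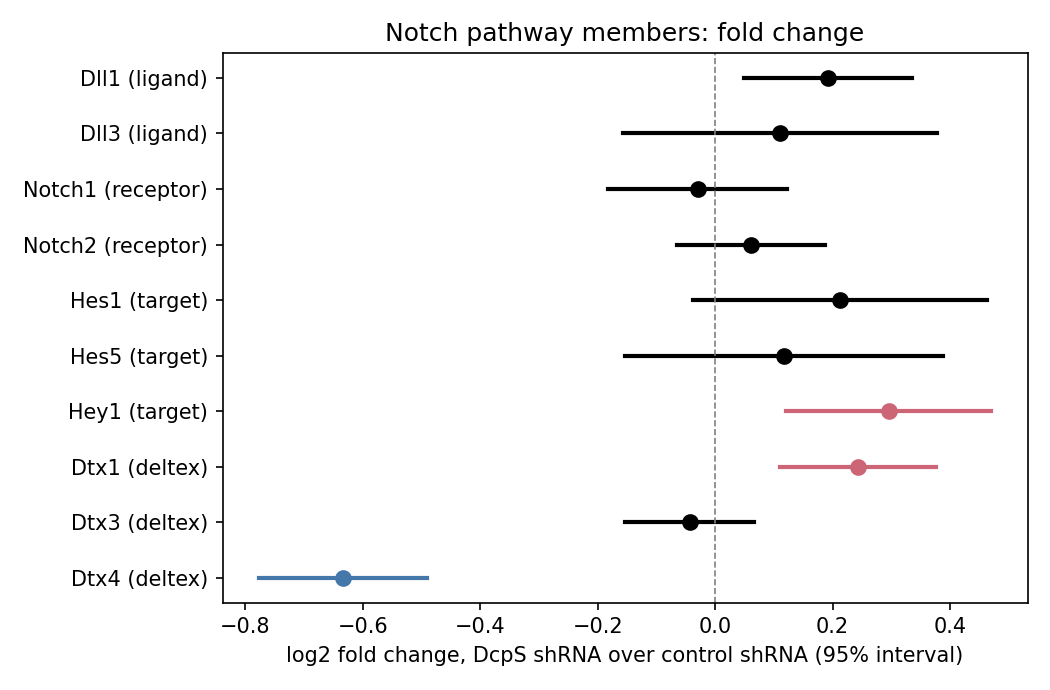
Log2 fold change of each member, DcpS shRNA over control shRNA (horizontal axis), with its 95% interval from limma. Called genes are coloured, red for higher (Hey1, Dtx1) and blue for lower (Dtx4). The interval of Dtx4, −0.78 to −0.49, lies apart from those of the other 9 members.

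Per kilobase of the longest coding transcript, the control order of the members was Dtx3, Notch1, Dll1, Dtx1, Notch2, Hes5, Hey1, Dtx4, Hes1 and Dll3, from 1242 down to 82.0 normalised reads per kilobase. Control ranges overlapped between the neighbours Notch1 and Dll1, Dtx1 and Notch2, and Hes5 and Hey1, so the order within those pairs is not resolved. The controls of Hes5 (221 and 167) also spanned those of Dtx4 (174 and 171), so the order of Hes5 and Dtx4 is not resolved either. Notch1 stood at 319 ± 3.78 and Notch2 at 241 ± 5.97 normalised reads per kilobase (SD, n = 2). With DcpS shRNA, Dtx4 stood in place 9 on this scale, below Hes1, where it had stood in place 8 in the controls. Divided by the length of all annotated exons together, Notch1 ranked 4 in place of 2, Notch2 ranked 3 in place of 5, and Dtx4 ranked 7 in place of 8 in the controls. On that scale Dtx4 stayed above Hes1 with DcpS shRNA, at 110.2 and 112 against 106 and 99.8 normalised reads per kilobase, so the crossing rests on the choice of length.

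The rest of the pathway was read from a list of 73 genes by role, of which 70 passed the filter. Of these, 2 were higher, 5 lower and 63 not called. The 7 called genes are 10% of the 70, beside 5.79% of all genes tested, and nothing particular to the list is read from that. The list's median log2 fold change was 0.02.

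**Figure D3:**
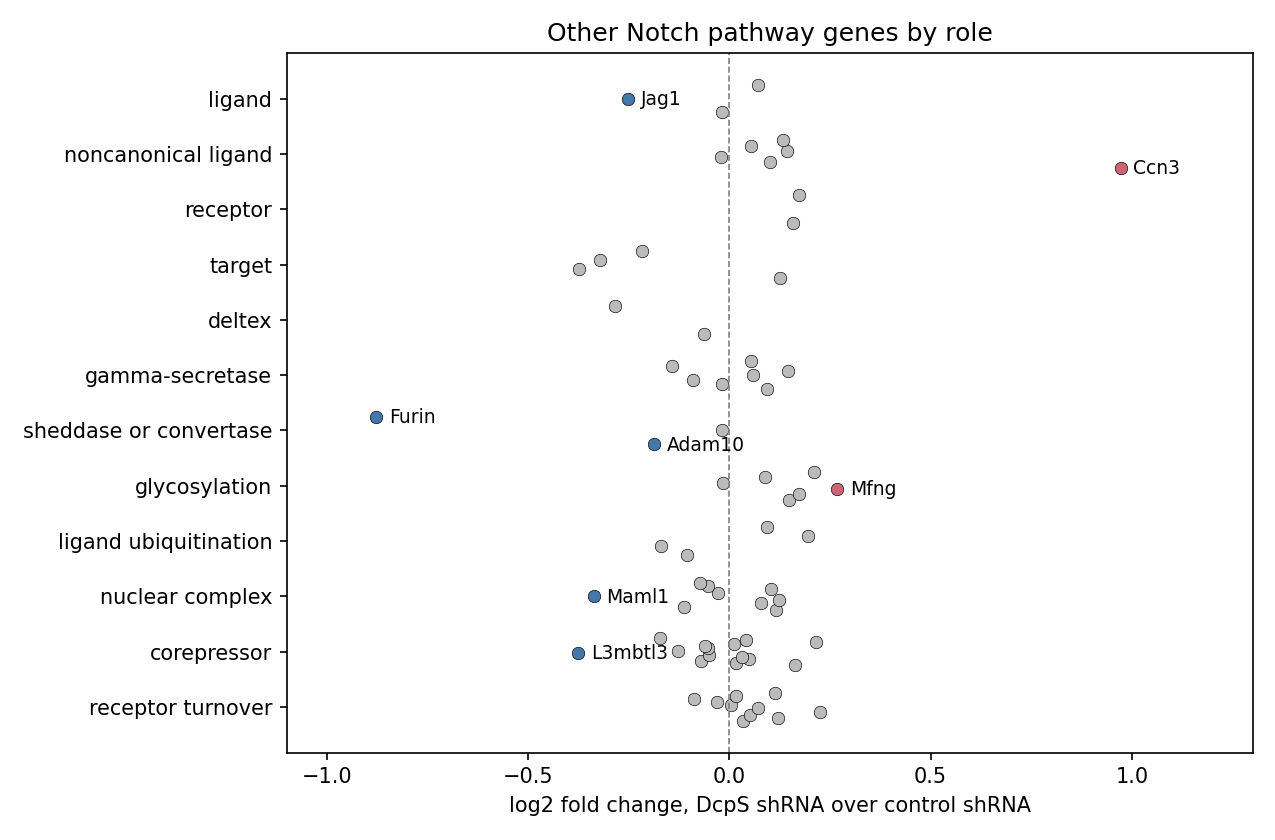
Log2 fold change, DcpS shRNA over control shRNA (horizontal axis), of the 70 tested pathway genes outside the 10 members, in rows by role. Coloured and named points passed limma's adjusted p of 0.05 (red higher, blue lower) and grey points did not. Furin (−0.88) and Ccn3 (0.97) lie farthest from 0, and most grey points lie close to it.

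The largest fall of the list was in Furin, the proprotein convertase that cuts Notch and many other precursors in the Golgi. It was at 671 and 635 in the controls and at 355 and 354 with DcpS shRNA, with a log2 fold change of −0.88 (SE 0.08; limma, Benjamini-Hochberg adjusted p 5.2e-06). Its 3′ UTR has 1 of the words shown above, as does that of Maml1, a Mastermind coactivator. Maml1 was at 709.8 and 657 in the controls and at 554 and 527 with DcpS shRNA (log2 fold change −0.34, SE 0.08; limma, adjusted p 0.0129). The call of Maml1 ended without control 1 (limma, adjusted p 0.130) and with DESeq2 (0.104).

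The other lower genes have neither word. L3mbtl3, a chromatin reader that binds RBPJ and represses its targets, was at 756 and 697 in the controls and at 541 and 579 with DcpS shRNA (log2 fold change −0.38, SE 0.08; limma, Benjamini-Hochberg adjusted p 0.00618, but 0.0637 without control 1). Jag1, a Jagged ligand, was at 845 and 785 and at 681 and 687 (−0.25, SE 0.07; limma, adjusted p 0.0428), and its call ended when any of the 4 libraries was left out (0.0572 to 0.327) and with DESeq2 (0.270). Adam10, the sheddase of Notch, was at 2588 and 2601 and at 2262 and 2295 (−0.19, SE 0.05; limma, adjusted p 0.0451), and its call ended without control 1 (0.238) or control 2 (0.284) and with DESeq2 (0.183). For each of these genes both DcpS shRNA libraries lay below both controls. The fibroblast and astrocyte markers given above were lower in the same libraries as Dtx4, Furin, Maml1, L3mbtl3, Jag1 and Adam10, and their part in these falls was not tested.

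Ccn3, a secreted matricellular protein that can bind Notch1, rose most. It was at 78.9 and 73.8 in the controls and at 152 and 149.7 with DcpS shRNA, a log2 fold change of 0.97 (SE 0.15; limma, Benjamini-Hochberg adjusted p 0.000729). Mfng, a Fringe glycosyltransferase that modifies Notch and is made by intermediate progenitors, was at 873 and 775 and at 1044 and 941 (0.27, SE 0.07; limma, adjusted p 0.0437). The call of Mfng ended without control 2 (limma, adjusted p 0.366) or DcpS shRNA 1 (0.166) and with DESeq2 (0.215). Markers of intermediate progenitors, the dividing precursors of cortical neurons, were higher for 3 of 9 genes, Mfng among them. Their sum was 10935 to 11788 in the controls and 11966 to 12473 with DcpS shRNA. Of the 9, 8 had log2 fold changes above 0 and 1, Neurog2 (−0.19), was below. The 6 that were not called included Neurog2, Eomes (0.05) and Insm1 (0.004), named after their values were seen. The other called markers of that type were Btg2, an antiproliferative gene (0.40, SE 0.06), and the neurogenic factor Neurod4 (0.67, SE 0.15), not called without control 2 (limma, adjusted p 0.149) or by DESeq2 (0.135). These rose alongside Hey1 and Dtx1, and their part in those rises was not tested.

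In the roles without a call, the gene with the most reads is given. Notch3, a receptor also found in mural cells, was at 601 and 616 in the controls and at 699 and 660.4 with DcpS shRNA (log2 fold change 0.16; limma, Benjamini-Hochberg adjusted p 0.248). Hes6, which opposes Hes1 and marks committed precursors, was at 1881 and 1861 and at 2055 and 2026 (0.12; limma, adjusted p 0.216). Of the 4 tested targets outside the members, it was the 1 with a log2 fold change above 0. The other 3, named after their values were seen, were below 0 and not called: Hey2 (−0.37), Heyl (−0.32) and Nrarp (−0.22). The gamma-secretase subunit Ncstn was at 1829 and 1883 and at 1932 and 1935 (0.06; limma, adjusted p 0.618). The ligand ubiquitin ligase Mib1 had a log2 fold change of −0.11 (limma, adjusted p 0.372), which was −0.19 and called without DcpS shRNA 1 (0.0247). Nedd4, a ubiquitin ligase, had one of −0.03 (limma, adjusted p 0.815). Rbpj, the DNA-binding partner of Notch and named here for that role after its values were seen, was at 2237 and 2399.7 in the controls and at 2316 and 2151 with DcpS shRNA (−0.05, 95% interval −0.18 to 0.07; limma, adjusted p 0.691).

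Where other cell types could hold these transcripts, the marker sums were as follows, with markers under the filter counted as not called. Endothelial markers summed to 105 and 151 in the controls and to 86.3 and 87.2 with DcpS shRNA, with 1 of 6 lower, Kdr (log2 fold change −0.74), not called without control 2 (−0.56; Benjamini-Hochberg adjusted p 0.277 in limma) or by DESeq2 (0.217). Kdr held most of these sums, at 84.6 and 109 in the controls and at 58.1 and 55.9 with DcpS shRNA. Of the 3 endothelial markers tested, 2 had log2 fold changes below 0 and 1 above. The latter, Pecam1, had 6 to 22 reads per library and went up without a call (0.93; limma, unadjusted p 0.0481, adjusted p 0.263). Mural markers summed to 1268 and 1292 and to 1084 and 1012, with 2 of 6 lower, Pdgfrb (−0.72) and Acta2 (−1.93). Notch3 is on the mural list and was not lower; the other 5 mural markers summed to 668 and 676 in the controls and to 385 and 352 with DcpS shRNA. Microglia markers summed to 164 and 158 and to 149.9 and 148, with 0 of 6 called in limma. Of the 5 tested, 4 had log2 fold changes below 0 and 1 above. That 1, Tmem119, was higher with DcpS shRNA (0.56) and alone had an unadjusted p under 0.05 (limma, 0.0390). Interneuron markers summed to 291 and 299 and to 264 and 266, with 0 of 7 called in limma, 3 above 0 and 4 below. Of these 1, Gad1, had an unadjusted p under 0.05 (limma, 0.00502) and was lower (log2 fold change −0.55). Pecam1, Tmem119 and Gad1 were named after their values were seen. Oligodendrocyte lineage markers summed to 582 and 627 and to 562 and 576, with Pdgfra lower (−0.63) and Mbp higher (0.47). Pdgfra was not called without control 2 (limma, adjusted p 0.0812) or by DESeq2 (0.168), and Mbp not without control 1 (0.226), without DcpS shRNA 2 (0.0904) or by DESeq2 (0.221). In radial glia, Nes was higher (0.27) and Hopx lower (−0.50), 2 of 9 genes. Nes was not called without control 1 (limma, adjusted p 0.0662) or control 2 (0.0688), and Hopx was not called by DESeq2 (0.0783). Their part in the values of the Notch genes was not tested.

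**Figure D4:**
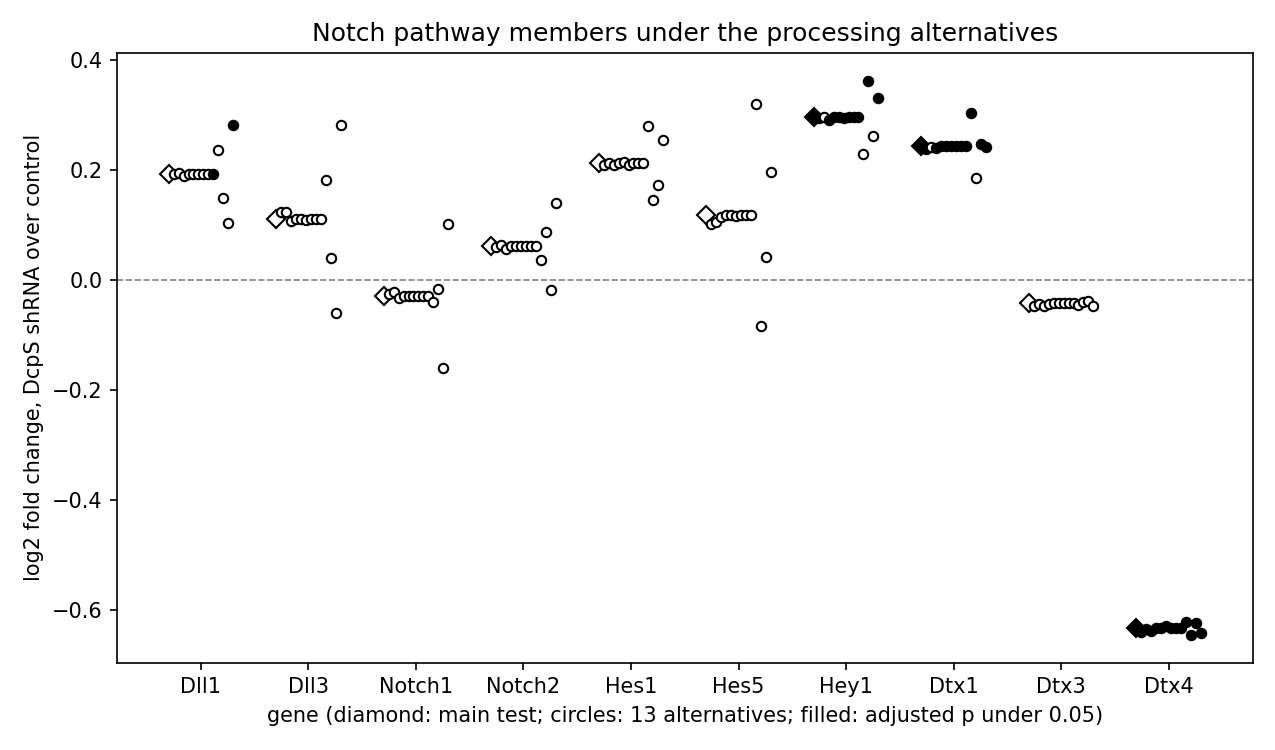
Log2 fold change of each member (vertical axis) in the reported test (diamond) and in 13 processing alternatives (circles), filled where the adjusted p was under 0.05. Dtx4 stays between −0.65 and −0.62 and is filled throughout, Hey1 and Dtx1 stay above 0 but are open in 3 and 2 alternatives, and Dll3, Notch1, Notch2 and Hes5 have 1 or more circles on each side of 0.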

How the data were processed

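RNA was extracted with Trizol from 4 cultures and sequenced. Per the submitters' processing notes, HISAT2 2.2.0, SAMtools 1.3.1, Picard, featureCounts, DESeq2 and build GRCm38 were used; their annotation and strand setting are not stated there. The authors deposited a signal, gene counts divided by a size factor for each library: every value was a whole multiple (tolerance 0.001) of its column's smallest positive value, which gave whole reads for 100% of values, and the implied factors (0.895 to 1.10) equalled median-of-ratios factors computed from those reads. Size factors assume that most genes do not change.

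Genes passing edgeR's filterByExpr (minimum count 10) were tested with limma 3.58.1 on log2(normalised read count + 1), with trend and robust empirical Bayes and group as the only term; the log2(value + 1) scale understates changes of low genes. Intervals are 95% and pooled over genes; an exact two-sided permutation test of 2 against 2 cannot go below p 0.333. On reads simulated for this comparison (18110 genes, 200 changed), the fit recovered 44% of 1.3-fold, 64% of 1.5-fold and 84% of 2-fold changes. Alternatives were edgeR 4.0.16 and DESeq2 1.42.0 on recovered reads, other scalings, pseudocounts and filters, a replicate block, and leaving out each library. Named were all members, every called pathway gene, the gene with the most reads in each role without a call, and up to 3 called markers of each cell type. Members and lists were chosen with earlier results of these data known. Positions and lengths are from GENCODE M21 (GRCm38), promoters from RefSeq.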

Additional observations from a re-analysis of the deposited data

How the results depend on the processing

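The counts of called genes moved with the libraries and the tool. Leaving out 1 library gave 594 (without control 2) to 1439 (without DcpS shRNA 1) called genes in place of 1048, 2 to 4 called members in place of 3, and 3 (without control 1) to 12 (without DcpS shRNA 1) called pathway genes in place of 7. DESeq2 called 448 genes (2.47%), 1 member (Dtx4) and 3 pathway genes. With the replicate block 1626 genes (8.98%), 4 members and 10 pathway genes were called; Dll1 was then called (limma, Benjamini-Hochberg adjusted p 0.0426). The labels give shared numbers but no shared preparation, and the differences between numbers 1 and 2 in the groups correlated at 0.0546 over 15878 genes, so the samples were not treated as pairs. The direction turned in 4 uncalled members when 1 library was left out: Hes5 without control 2 (log2 fold change −0.084, range −0.084 to 0.32), Dll3 (−0.060, range −0.060 to 0.28) and Notch2 (−0.018, range −0.018 to 0.14) without DcpS shRNA 1, and Notch1 without DcpS shRNA 2 (0.10, range −0.16 to 0.10). The cause was not tested. Of the called members and pathway genes, Dtx4, Furin and Ccn3 were called in all 13 alternatives, L3mbtl3 in 12, Dtx1 and Maml1 in 11, Hey1, Adam10 and Mfng in 10 and Jag1 in 8. TMM and library-total scaling moved the median gene by −0.0045 and −0.00034 on the log2 scale. The member with the fewest reads, Hes1, had 168 in 1 library, which with 2 libraries a group limits the precision of the lower members.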
